A study of Mus musculus with 15 samples.

Results

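The immediate early response genes described here were 10 genes, chosen by name from the gene symbols of the expression table: Fos, Fosb, Fosl1, Junb, Atf3, Egr1, Egr2, Ier2, Ier3 and Srf. They were 10 of the 23244 entries of the table, each found as 1 entry. Of the 10, 9 passed the filter on low values and were among the 13845 genes tested, and Fosl1 did not. The tissue was made from 1 mouse embryonic stem (ES) cell line, EB5 Rx::GFP+/-, in which GFP reports the eye field gene Rx, by SFEBq culture, in which 3000 dissociated ES cells reaggregate in a low-adhesion well with 4% Matrigel and form an optic epithelium at the surface. GFP-positive epithelium was cut out with forceps at Day 10 and either collected (Day 10 Rx::GFP+) or cultured on in retinal maturation medium until Day 12 or Day 15. The +Fgf tissue, which follows a neural retina-like course, received bFgf at 5 ng/ml together with 10% fetal bovine serum. The +Wnt tissue, which follows a pigment epithelium-like course, received the GSK3 inhibitor CHIR99201 at 3 µM for 24 h and 1 µM afterwards, with no serum listed. Serum and bFgf were therefore always given together, and their effects on these genes cannot be told apart. No group was cultured in the maturation medium alone. Fresh medium was given on days 11, 12 and 14. The sources used here do not give the order of exchange and collection at Day 12, the hours between the last exchange and lysis, or the time from cutting to lysis at Day 10. Each of the 5 groups held 3 libraries.

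Immediate early genes are transcribed within minutes of a stimulus such as serum, a growth factor, mechanical injury or stress, without the need for new protein synthesis, and their short-lived mRNAs decline soon afterwards. Growth factors act on many of them through the ERK kinases, which activate ternary complex factors bound with serum response factor (SRF) at CArG boxes, and SRF also drives cytoskeletal genes through cofactors of the myocardin family. Fos, Jun and ATF proteins pair to form the AP-1 transcription factor, EGR proteins are zinc finger transcription factors, and many of these genes also respond to handling of tissue.

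Promoter stretches of Srf, Egr2, Fos and Atf3 are shown because they held the letters of elements through which serum, growth factors or cAMP are known to act on such genes. They were taken from RefSeq promoters of build GRCm38.p6, which held 11 promoters of 7 of the 10 members and none for Fosl1, Egr1 and Ier2. Each is 120 bases long, is written 5′ to 3′ on the strand of the gene and ends at the base before an annotated start. Capitals mark a CArG box in Srf, a CArG box and then a TGACGT match in Egr2, and a TGACGT match in Fos and Atf3. The Srf stretch is chr17:46556163-46556282 on the minus strand, Egr2 is chr10:67537749-67537868 on the plus strand, Fos is chr12:85473770-85473889 on the plus strand, and Atf3 is chr1:191183334-191183453 on the minus strand.
Srf: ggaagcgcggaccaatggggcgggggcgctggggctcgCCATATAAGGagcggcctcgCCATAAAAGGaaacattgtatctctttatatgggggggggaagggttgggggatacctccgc
Egr2: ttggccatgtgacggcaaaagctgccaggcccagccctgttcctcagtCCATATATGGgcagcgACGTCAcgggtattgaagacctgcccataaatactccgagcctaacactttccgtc
Fos: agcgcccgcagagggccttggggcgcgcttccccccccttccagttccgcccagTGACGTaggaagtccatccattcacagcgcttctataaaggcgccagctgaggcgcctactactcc
Atf3: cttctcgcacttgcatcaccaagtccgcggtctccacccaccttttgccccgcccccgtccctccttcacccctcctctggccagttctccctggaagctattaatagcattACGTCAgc
Srf held 2 CArG boxes, from 82 to 73 and from 62 to 53 bases before its start. The Egr2 stretch lies in an intron of Egr2 transcripts that start farther upstream, directly before the first exon of shorter ones, and the Atf3 stretch lies inside the Atf3 gene, whose longer transcripts start farther upstream. In windows of 300 bases (250 before and 50 after each start), read on both strands, a CArG box was found in 1.63% of 32851 promoters, TGANTCA (the AP-1 site) in 7.81% and TGACGT (the core of a cAMP response element) in 7.51%. None of the 11 member promoters held TGANTCA, and the Fosb, Junb and Ier3 windows held none of the 3 motifs. These are matches of letters in short windows.

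The 15 libraries held between 12556998 and 16175450 reads on genes, so that 1 read amounted to 0.0620 to 0.0764 CPM depending on the library. Log2 expression values of replicates correlated at r = 0.988 to 0.995 and those of libraries of different groups at up to 0.969, and no pair of libraries was identical. The summed level of 6 optic progenitor and neural retina markers was 1787 to 1950 CPM at Day 10, 1887 to 2137 CPM in +Fgf tissue and 491 to 769 CPM in +Wnt tissue. The sum of 7 pigment epithelium markers reached 5195 to 6718 CPM in Day 15 +Wnt tissue, although Rpe65, a marker of the mature cell, was at 0 in all 3 of those libraries.

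The plot of CPM by group shows the levels of the 9 tested members, and 4 patterns can be read from it: a low Day 12 +Wnt level (Fos, Junb, Egr1, Egr2), a peak at Day 10 (Fosb, Atf3), a rise to Day 15 (Ier3), and lower levels at Day 15 than at Day 10, after a gradual decline (Srf) or with a higher Day 12 +Fgf level between (Ier2). Values are given for replicates 1, 2 and 3 in that order, in CPM as deposited. Changes are log2 fold changes of CPM + 0.3 with their standard error (SE), which understates the change of genes at low levels. They come from limma fitted over all 15 libraries, with p-values adjusted by the Benjamini-Hochberg method over 13845 genes and a threshold of 0.05. Tissue was sequenced in bulk, so fewer cells that express a gene and less RNA per cell cannot be told apart. The comparisons share groups (the Day 10 libraries stand in 4 of them) and are not independent of each other.

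**Figure D1:**
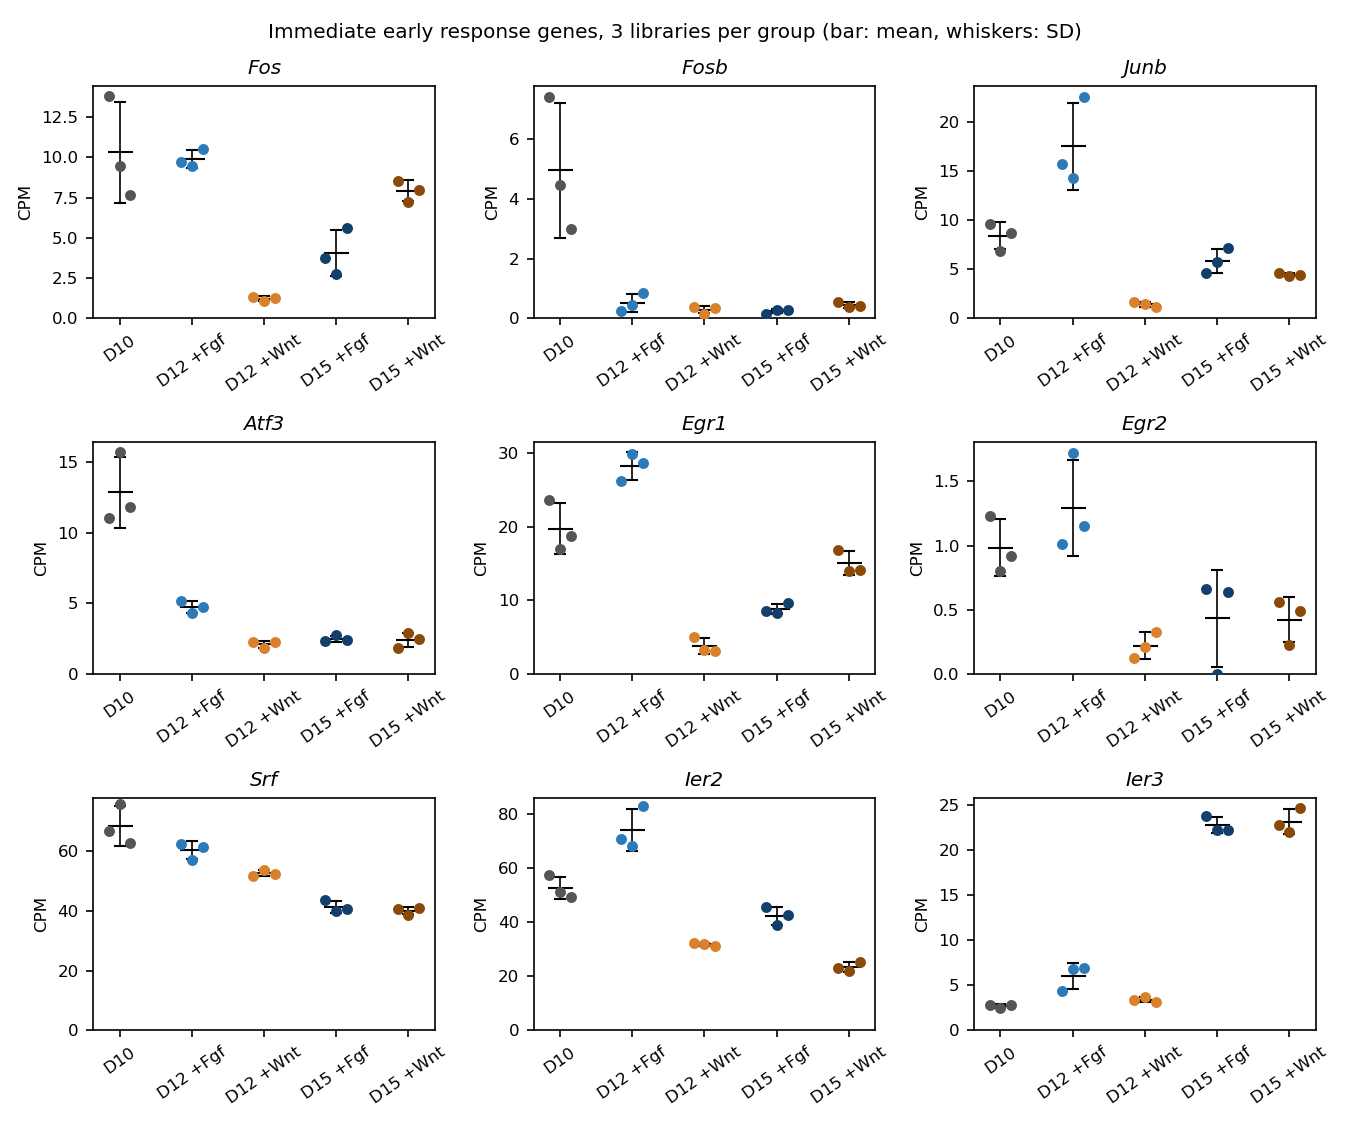
CPM (y axis, linear, from 0, a scale of its own in each panel) of 9 immediate early response genes in the 5 groups (x axis, D for Day), with 1 point per library, a bar at the mean and whiskers of 1 SD (n = 3). The Day 12 +Wnt libraries lie at the bottom of the Fos, Junb and Egr1 panels, Fosb and Atf3 are highest at Day 10, and Ier3 is highest in both Day 15 groups.

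Fos encodes the founding partner of Jun proteins in AP-1. It was measured at 13.8, 9.49 and 7.64 CPM at Day 10, at 9.70, 9.49 and 10.5 CPM in Day 12 +Fgf tissue and at 1.32, 1.04 and 1.26 CPM in Day 12 +Wnt tissue. At Day 15 it was at 3.76, 2.75 and 5.58 CPM in +Fgf tissue and at 8.56, 7.23 and 8.0 CPM in +Wnt tissue. The means fell in the order Day 10, Day 12 with +Fgf, Day 15 with +Wnt, Day 15 with +Fgf and Day 12 with +Wnt, and of these neighbours only the first pair overlapped. The order of the stimulations turned over between the days: +Fgf tissue was higher at Day 12 (log2 change 2.76, SE 0.22, adjusted p = 1.74e-08) and lower at Day 15 (-0.98, SE 0.22, adjusted p = 0.000753), with no overlap of libraries at either day. The Day 15 difference was not past the threshold with RNA integrity as a covariate (-0.73, adjusted p = 0.163).

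Junb encodes a Jun protein that pairs with Fos. It was at 9.61, 6.89 and 8.71 CPM at Day 10, at 15.7, 14.3 and 22.6 CPM in Day 12 +Fgf tissue and at 1.64, 1.46 and 1.13 CPM in Day 12 +Wnt tissue. The Day 15 values were 4.65, 5.77 and 7.14 CPM in +Fgf tissue and 4.59, 4.25 and 4.42 CPM in +Wnt tissue. Junb had the largest difference of the members between the stimulations at Day 12 (3.37, SE 0.19, adjusted p = 2.99e-10), from a rise over Day 10 with +Fgf (1.02, SE 0.19, adjusted p = 0.000263) and a fall with +Wnt (-2.35, SE 0.19, adjusted p = 3.25e-08). At Day 15 the groups did not overlap, but the difference was not past the threshold (0.36, 95% interval -0.04 to 0.77, adjusted p = 0.101), although it was with quantile normalization (0.78, adjusted p = 0.000816) and without Day 15 +Fgf replicate 1 (0.51, adjusted p = 0.0357). An exon annotated for Junb overlaps an exon of Prdx2 on the opposite strand. The gene as annotated is longer than the 1-exon transcript of 1809 bases, and the overlap was not examined for that transcript alone. The strand setting of the counting is not given in the sources used here. Some of these reads could belong to Prdx2 if the counted stretch reaches the overlap.

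Fosb and Atf3 had their highest level at Day 10, in tissue lysed after it was cut out and without further culture, and were lower in every cultured group. Fosb, a Fos family partner in AP-1, was at 7.43, 4.48 and 2.98 CPM at Day 10, and between 0.139 and 0.831 CPM (2 to 13 reads) in the 12 cultured libraries. It passed the filter through its Day 10 libraries alone, so that a fall from Day 10 was built into its being tested. The fall was -2.67 (SE 0.32, adjusted p = 3.44e-06) in Day 12 +Fgf tissue and -3.11 (SE 0.32, adjusted p = 5.09e-07) in Day 12 +Wnt tissue. Among the cultured groups the Fosb ranges overlapped for each neighbour in the order of means, and Day 12 +Fgf against +Wnt was not past the threshold (0.44, 95% interval -0.24 to 1.12, adjusted p = 0.274).

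Atf3, a stress-induced member of the ATF family, was at 11.0, 15.7 and 11.8 CPM at Day 10. It was at 5.13, 4.33 and 4.73 CPM in Day 12 +Fgf tissue and at 2.26, 1.81 and 2.25 CPM in Day 12 +Wnt tissue. In the Day 15 groups it was between 1.86 and 2.91 CPM. Atf3 fell by 1.37 on the log2 scale with +Fgf (SE 0.17, adjusted p = 6.10e-06) and by 2.44 with +Wnt (SE 0.17, adjusted p = 8.18e-09) from Day 10 to Day 12, and Day 12 +Fgf stood above Day 12 +Wnt (1.07, SE 0.17, adjusted p = 7.57e-05). The Day 15 groups overlapped each other, Day 15 +Wnt overlapped Day 12 +Wnt, and Day 15 +Fgf lay just above Day 12 +Wnt. The summed level of 11 heat shock genes was also highest at Day 10 (8646 to 8712 CPM, against 4772 to 6986 CPM in the cultured groups). Hspa8 made up the largest part of that sum, with a mean of 4591.5 CPM at Day 10. Hspa1a and Hspa1b had means of 2.71 and 3.88 CPM at Day 10. In Day 12 +Fgf tissue 7 of the 11 were lower than at Day 10 and 1 was higher. Of all genes, 27.8% were lower there and 27.9% higher. The means of Bag3 (17.2 and 22.2 CPM) and Hspb1 (9.62 and 16.5 CPM) were lower at Day 10 than in Day 12 +Fgf tissue. The part of these genes in the Fosb and Atf3 levels was not tested. From Day 12 to Day 15 in +Wnt tissue the change of Atf3 was 0.16 (95% interval -0.21 to 0.53, adjusted p = 0.443), and quantile normalization turned it into a fall (-0.55, adjusted p = 0.0081).

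Fosl1, the Fos relative also called Fra-1, held 0 to 3 reads in every library (at most 0.201 CPM) and 0 reads in all 6 libraries of Day 12 +Wnt and Day 15 +Fgf tissue. All groups were at or under the floor of 3 reads per library, so no fold change was computed, and differences were not detectable at this depth. Its exons overlap an exon of Ccdc85b on the opposite strand.

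Egr1, an EGR gene that growth factors induce, was at 23.6, 17.0 and 18.7 CPM at Day 10, at 26.2, 29.9 and 28.7 CPM in Day 12 +Fgf tissue and at 5.03, 3.27 and 3.18 CPM in Day 12 +Wnt tissue. At Day 15 it was at 8.63, 8.31 and 9.68 CPM in +Fgf tissue and at 16.9, 14.0 and 14.2 CPM in +Wnt tissue. No 2 neighbouring groups overlapped when ordered as Day 12 with +Fgf, Day 10, Day 15 with +Wnt, Day 15 with +Fgf and Day 12 with +Wnt. As for Fos, +Fgf was higher at Day 12 (2.82, SE 0.15, adjusted p = 1.84e-10) and lower at Day 15 (-0.74, SE 0.15, adjusted p = 0.000414, and 0.0406 with RNA integrity as a covariate). The rise of Egr1 over Day 10 in Day 12 +Fgf tissue (0.52, SE 0.15, adjusted p = 0.00863) was not past the threshold with that covariate (0.55, adjusted p = 0.0669).

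Egr2, known for its part in hindbrain patterning and myelination, was near the limit of detection. It was at 1.23, 0.802 and 0.917 CPM at Day 10, at 1.01, 1.72 and 1.15 CPM in Day 12 +Fgf tissue and at 0.126, 0.209 and 0.331 CPM (2 to 5 reads) in Day 12 +Wnt tissue. At Day 15 it was at 0.664, 0 and 0.636 CPM in +Fgf tissue and at 0.558, 0.224 and 0.491 CPM in +Wnt tissue. It passed the filter through 1 Day 10 library and 2 Day 12 +Fgf libraries, so the groups in which it is high decided that it was tested. The Day 12 groups did not overlap (1.61, SE 0.38, adjusted p = 0.00209), and the Day 15 groups did. The fall from Day 12 to Day 15 in +Fgf tissue (-1.28, SE 0.38, adjusted p = 0.00888) rested on the library without reads: without Day 15 +Fgf replicate 2 it was -0.72 (adjusted p = 0.0548).

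Ier2, a small nuclear protein of the immediate early response, had the highest level of the members per length of transcript, at 34.5 ± 2.72 CPM per kb at Day 10 (SD, n = 3), with Srf next at 26.2 ± 2.60 CPM per kb and Egr1 at 6.52 ± 1.12. In CPM, Ier2 was at 57.2, 51.0 and 49.3 at Day 10, at 70.7, 68.1 and 82.7 in Day 12 +Fgf tissue and at 32.2, 31.9 and 31.0 in Day 12 +Wnt tissue. The Day 15 values were 45.4, 38.8 and 42.4 CPM in +Fgf tissue and 22.8, 21.9 and 25.2 CPM in +Wnt tissue. All 5 groups were separate for Ier2, and +Fgf tissue was higher than +Wnt tissue at both days (1.21, SE 0.08, adjusted p = 3.10e-09 at Day 12, and 0.85, SE 0.08, adjusted p = 1.06e-07 at Day 15). Unlike Fos, Junb and Egr1, it fell from Day 12 to Day 15 in +Wnt tissue (-0.44, SE 0.08, adjusted p = 0.000149).

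Ier3, which acts on cell survival, rose late and in both tissues. It was at 2.79, 2.41 and 2.75 CPM at Day 10, at 4.31, 6.82 and 6.90 CPM in Day 12 +Fgf tissue and at 3.40, 3.69 and 3.11 CPM in Day 12 +Wnt tissue. At Day 15 it was at 23.8, 22.3 and 22.3 CPM in +Fgf tissue and at 22.8, 22 and 24.7 CPM in +Wnt tissue. The rise from Day 10 to Day 15 was 2.97 (SE 0.15, adjusted p = 2.42e-11) with +Fgf and 2.99 (SE 0.15, adjusted p = 1.10e-11) with +Wnt, and the Day 15 groups overlapped (-0.02, 95% interval -0.33 to 0.29, adjusted p = 0.906). Ier3 was the only member above its Day 10 level at Day 15, in the fit as in the group means.

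Srf, the transcription factor that binds CArG boxes, declined in small steps. It was at 67.0, 76.1 and 62.8 CPM at Day 10, at 62.6, 57.1 and 61.6 CPM in Day 12 +Fgf tissue and at 51.8, 53.9 and 52.5 CPM in Day 12 +Wnt tissue. The Day 15 values were 43.6, 39.9 and 40.6 CPM in +Fgf tissue and 40.6, 38.7 and 40.9 CPM in +Wnt tissue. Day 15 libraries lay below all Day 10 and Day 12 libraries, with a fall from Day 10 of -0.72 (SE 0.07, adjusted p = 3.73e-08) with +Fgf and -0.77 (SE 0.07, adjusted p = 1.02e-08) with +Wnt. The fall from Day 10 to Day 12 +Fgf (-0.18, SE 0.07, adjusted p = 0.0288) was not past the threshold without Day 10 replicate 2 (-0.10, adjusted p = 0.164) or Day 12 +Fgf replicate 2 (-0.14, adjusted p = 0.121). Nor did it pass the threshold with RNA integrity as a covariate (-0.17, adjusted p = 0.18) or in a limma fit of the compared groups alone (-0.18, adjusted p = 0.0738). The difference between the stimulations at Day 12 (0.20, SE 0.07, adjusted p = 0.0198) was not past it without Day 12 +Fgf replicate 1 or 3 or Day 12 +Wnt replicate 1 or 3, with adjusted p from 0.0503 to 0.0788.

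**Figure D2:**
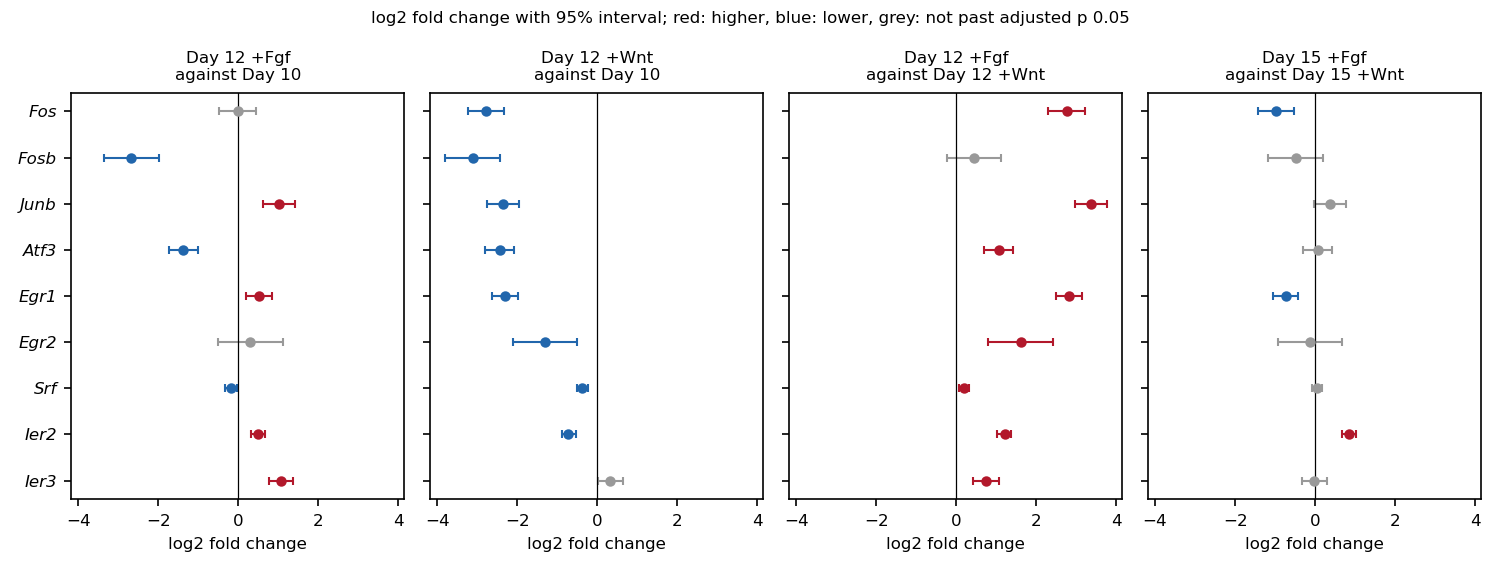
Log2 fold change of CPM + 0.3 (x axis) with its 95% interval for the 9 tested members (y axis) in 4 comparisons, in red or blue where adjusted p was under 0.05 and in grey elsewhere. In Day 12 +Fgf against Day 12 +Wnt 8 genes lie to the right of 0 in red, and in Day 15 +Fgf against Day 15 +Wnt 6 genes are grey.

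The members were then counted by comparison. Fosb and Egr2 were tested because of the groups in which they are high, so each count is also given over the other 7 (Fos, Junb, Egr1, Ier2, Ier3, Atf3, Srf), which reached the filter's level in all 15 libraries. Against Day 10, Day 12 +Fgf tissue had 4 of 9 members higher (Junb, Egr1, Ier2, Ier3) and 3 lower (Fosb, Atf3, Srf), where 27.9% of all genes tested were higher and 27.8% lower. Over the 7, 4 were higher and 2 lower. Day 12 +Wnt tissue had 0 of 9 higher and 8 lower, where 30.6% of all genes were higher and 29.6% lower, and over the 7 0 were higher and 6 lower. The median change of the 7 was -2.30, against 0.01 over all genes. The exception was Ier3 (0.33, 95% interval 0.01 to 0.64, adjusted p = 0.0678). With edgeR on the recovered reads the count was also 8, and Ier3 was at 0.36 (adjusted p = 0.11). With RNA integrity as a covariate the count was 9, with Ier3 past the threshold as a rise (0.51, adjusted p = 0.032).

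In Day 12 +Fgf against Day 12 +Wnt, 8 of 9 members were higher and 0 lower, where 26.3% of all genes were higher and 25.2% lower. All of the 7 were higher, with a median change of 1.21, against 0 over all genes. The sizes ranged from 0.20 for Srf to 3.37 for Junb, and Fosb was the gene that did not pass.

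In Day 15 +Fgf against Day 15 +Wnt, 1 of 9 members was higher (Ier2) and 2 were lower (Fos, Egr1), where 38% of all genes were higher and 30.6% lower. Over the 7, 1 was higher and 2 lower. The shares of members called at Day 15 lay below those of all genes, and the median change of the 7 was 0.04, against 0.05 over all genes. Quantile normalization called 5 members, adding Junb and Atf3 (0.52, adjusted p = 0.012) as higher.

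Between Day 12 and Day 15 the members fell for the most part in +Fgf tissue, and several rose in +Wnt tissue. In +Fgf tissue 1 of 9 members rose (Ier3) and 7 fell, where 27.2% of all genes were higher and 29.9% lower, and Fosb was the one not called. Over the 7, 1 rose and 6 fell. Fos fell by 1.29 (SE 0.22, adjusted p = 8.55e-05), Junb by 1.53 (SE 0.19, adjusted p = 3.70e-06) and Egr1 by 1.64 (SE 0.15, adjusted p = 1.47e-07) on the log2 scale. With RNA integrity as a covariate 5 members were called, and Fos (-1.01, adjusted p = 0.108), Egr2 (-1.01, adjusted p = 0.383) and Atf3 (-0.44, adjusted p = 0.38) were not among them.

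In +Wnt tissue 4 of 9 members rose from Day 12 to Day 15 (Fos, Junb, Egr1, Ier3) and 2 fell (Ier2, Srf), where 32.5% of all genes were higher and 35.5% lower. Over the 7, 4 rose and 2 fell. The rise was 2.45 for Fos (SE 0.22, adjusted p = 4.06e-08), 1.48 for Junb (SE 0.19, adjusted p = 3.19e-06) and 1.92 for Egr1 (SE 0.15, adjusted p = 1.21e-08). The difference between the changes of +Fgf and +Wnt tissue, tested as an interaction, was negative for 7 of 9 members and positive for 0, where 27% of all genes were positive and 20.9% negative. Over the 7 it was negative for 6. It was largest for Fos (-3.74, SE 0.31, adjusted p = 6.65e-08) and Egr1 (-3.56, SE 0.22, adjusted p = 3.34e-09). Fosb (-0.93, 95% interval -1.89 to 0.03, adjusted p = 0.104) and Srf (-0.15, 95% interval -0.35 to 0.05, adjusted p = 0.195) did not pass.

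Against Day 10, Day 15 +Fgf tissue had 1 of 9 members higher (Ier3) and 8 lower, where 36.2% of all genes were higher and 36.4% lower, and over the 7 1 was higher and 6 lower. Day 15 +Wnt tissue had 1 higher (Ier3) and 6 lower, where 39.6% were higher and 40.2% lower, and over the 7 1 was higher and 5 lower. Fos (-0.33, 95% interval -0.79 to 0.13, adjusted p = 0.174) and Egr2 (-0.84, 95% interval -1.65 to -0.04, adjusted p = 0.0519) did not pass. Fos passed with quantile normalization (-0.96, adjusted p = 0.000393) and without Day 10 replicate 3 (-0.52, adjusted p = 0.0493). Egr2 passed with a pseudocount of 1, quantile normalization, the replicate block or the compared groups alone, and without Day 15 +Wnt replicate 1. The adjusted p of Egr2 in those fits was from 7e-04 to 0.0493. Junb in Day 15 +Fgf tissue (-0.51, SE 0.19, adjusted p = 0.0243) was not past the threshold without Day 10 replicate 1 or 3 or Day 15 +Fgf replicate 1 or 2 (adjusted p from 0.0504 to 0.12). Egr2 in Day 15 +Fgf tissue (-0.97, SE 0.38, adjusted p = 0.0299) was -0.42 (adjusted p = 0.225) without Day 15 +Fgf replicate 2, and also did not pass without Day 10 replicate 1 (adjusted p = 0.0965) or 3 (adjusted p = 0.054). Nor did it pass with edgeR (adjusted p = 0.0705), RNA integrity as a covariate (adjusted p = 0.121) or the compared groups alone (adjusted p = 0.0679). Egr1 in Day 15 +Wnt tissue (-0.38, SE 0.15, adjusted p = 0.0317) was -0.25 without Day 10 replicate 1 (adjusted p = 0.169), and did not pass without Day 15 +Wnt replicate 2 (adjusted p = 0.0953) or 3 (adjusted p = 0.0877). With RNA integrity as a covariate it was -0.36 (adjusted p = 0.138).

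Markers of other cell types moved with the groups as well. The sum of 10 mesenchyme markers, all above 0 in every library, was 81.8 to 107.7 CPM at Day 10, 169.4 to 297.0 and 122.2 to 163.4 CPM in +Fgf and +Wnt tissue at Day 12, and 130.4 to 165.4 and 569.0 to 683.2 CPM at Day 15. The sum of 5 endothelium markers was 99.6 to 170.3 CPM in Day 12 +Fgf against 5.60 to 9.33 CPM in Day 12 +Wnt tissue, but 1 of the 5 reached 1 CPM in all 3 Day 12 +Fgf libraries. That gene was Kdr, with a mean of 140.6 CPM, while Cdh5 was at 0.34 and Emcn at 0.0848 CPM. The sum of 5 blood cell markers was 20.7 to 23.9 CPM in Day 15 +Wnt tissue with Ptprc and Tyrobp at 0, where it was carried by Csf1r (mean 20.1 CPM), and at most 3.61 CPM in the other groups. The sum of 7 neuron markers was 83.2 to 151.1 CPM at Day 10, 258.0 to 298.0 CPM in Day 12 +Fgf and 568.4 to 801.4 CPM in Day 12 +Wnt tissue. The neuron sum at Day 15 was 1670 to 1754 CPM in +Fgf and 1282 to 1613 CPM in +Wnt tissue. The mean of Dcx, 1 of the 7, was lower in +Fgf tissue at Day 15 (167.7 against 332.1 CPM). The sum of 5 ES cell markers was 45.0 to 57.9 CPM at Day 10, 20.7 to 55.7 CPM in Day 12 +Wnt and 4.02 to 17.6 CPM in Day 12 +Fgf tissue. At Day 15 it was 11.4 to 55.8 CPM in +Wnt and 1.03 to 15.0 CPM in +Fgf tissue. The part of these cells in the levels of the members was not tested.

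Other genes of the same response were counted from lists that are described here by counts and medians alone. The shares of all genes beside which these counts stand are 26.3% higher and 25.2% lower in +Fgf than in +Wnt tissue at Day 12, and 38% higher and 30.6% lower at Day 15. Of the alternative settings, single list genes were examined with edgeR alone. Their Day 15 differences were not checked with RNA integrity as a covariate. In Day 12 +Fgf against Day 12 +Wnt, 5 of 8 tested genes of other AP-1 proteins were higher and 0 lower (median 1.02), led by Fosl2 (2.06, SE 0.21, adjusted p = 5.33e-07) and Maff (1.99, SE 0.18, adjusted p = 9.46e-08). Fosl2, like Fos, was lower in +Fgf tissue at Day 15 (-1.02, SE 0.21, adjusted p = 0.000479), with group means of 23.1 and 5.28 CPM in +Fgf and +Wnt tissue at Day 12 and 10.7 and 21.9 CPM at Day 15. At Day 15 the list had 4 genes higher and 2 lower, with Jund (0.56, SE 0.07, adjusted p = 3.47e-06) at the top.

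Other immediate early transcription factor genes were split at Day 12, with 5 of 12 higher in +Fgf tissue, 2 lower and a median of -0.02. The largest increase was that of Myc (3.42, SE 0.15, adjusted p = 1.16e-11), the growth regulator, whose mean was 124.5 CPM at Day 10, 83.9 in Day 12 +Fgf tissue and 7.56 in Day 12 +Wnt tissue. Nr4a1, an orphan nuclear receptor, was also higher (2.1, SE 0.24, adjusted p = 1.27e-06), whereas its relative Nr4a2 was lower (-0.80, SE 0.13, adjusted p = 0.000101). At Day 15, 2 of 12 were higher and 6 lower (median -0.34), with Klf2 (-2.25, SE 0.36, adjusted p = 3.28e-05) and Nr4a3 (-1.22, SE 0.32, adjusted p = 0.00267) at the bottom.

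Genes for secreted and other effector products of the response were higher in 16 of 20 and lower in 2 of 20 tests at Day 12 (median 1.70). The largest increase was that of Plau (4.43, SE 0.29, adjusted p = 1.88e-09), the urokinase plasminogen activator, whose mean was 2.48 CPM at Day 10, 19.7 in Day 12 +Fgf tissue and 0.624 in Day 12 +Wnt tissue. At Day 15 10 of 20 were higher and 3 lower (median 0.33), with Gadd45a (4.20, SE 0.09, adjusted p = 6.33e-16), a growth arrest gene, at the top. Arc (-2.08, SE 0.23, adjusted p = 4.95e-07) and Npas4 (-0.97, SE 0.34, adjusted p = 0.0194), genes known for their induction by activity in neurons, were lower in Day 15 +Fgf than in Day 15 +Wnt tissue. Npas4 was near the limit of detection, with means of 0.423 and 1.04 CPM in +Fgf and +Wnt tissue at Day 15. Its highest group means (1.04 CPM, and 0.976 CPM in Day 12 +Fgf tissue) were close to the filter's level of 1 CPM.

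Genes that act as brakes on the response (phosphatases of the MAP kinases, EGR corepressors, mRNA decay factors and other inhibitors) were higher in 9 of 14 and lower in 1 of 14 tests at Day 12 (median 0.57). Dusp6, a phosphatase of ERK that growth factor signaling induces, was higher in +Fgf tissue at both days (2.69, SE 0.11, adjusted p = 1.16e-11 at Day 12, and 2.53, SE 0.11, adjusted p = 8.15e-12 at Day 15). Its mean was 154.5 and 23.9 CPM in +Fgf and +Wnt tissue at Day 12 and 93.7 and 16.2 CPM at Day 15, while Fos and Egr1 were lower in +Fgf tissue at Day 15. Nab2, a corepressor of EGR proteins, was also higher at Day 12 (2.26, SE 0.24, adjusted p = 8.23e-07). At Day 15 7 of 14 were higher and 4 lower (median 0.28), with Zfp36l2, an mRNA decay factor, the lowest (-1.25, SE 0.08, adjusted p = 3.04e-10).

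Cytoskeletal targets of SRF separated the stimulations at Day 12 in all 12 genes, with 12 higher in +Fgf tissue, a median of 2.32, and Srf itself at 0.20. Tagln (6.32, SE 0.22, adjusted p = 1.16e-12) and Acta2 (5.77, SE 0.18, adjusted p = 4.32e-13), smooth muscle proteins of the actin cytoskeleton, changed most. Tagln had means of 21.2 CPM at Day 10, 315.9 in Day 12 +Fgf and 3.62 in Day 12 +Wnt tissue, then 38.8 and 3.19 CPM at Day 15. Against Day 10, all 12 rose in Day 12 +Fgf tissue (median 0.96) and all 12 fell in Day 12 +Wnt tissue (median -1.17). Of all genes, 27.9% rose in Day 12 +Fgf tissue and 29.6% fell in Day 12 +Wnt tissue. From Day 12 to Day 15 all 12 fell in +Fgf tissue (median -1.63), and in +Wnt tissue 2 rose and 2 fell. Of all genes, 29.9% fell in +Fgf tissue over that time, and 32.5% rose and 35.5% fell in +Wnt tissue. At Day 15, 9 of 12 were still higher in +Fgf tissue and 1 was lower (median 0.52). Of 7 genes for SRF cofactors, 3 were higher at Day 12 and 1 lower (median 0.24), led by Myocd (2.15, SE 0.28, adjusted p = 7.76e-06), and at Day 15 2 were higher and 1 lower (median -0.07).

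**Figure D3:**
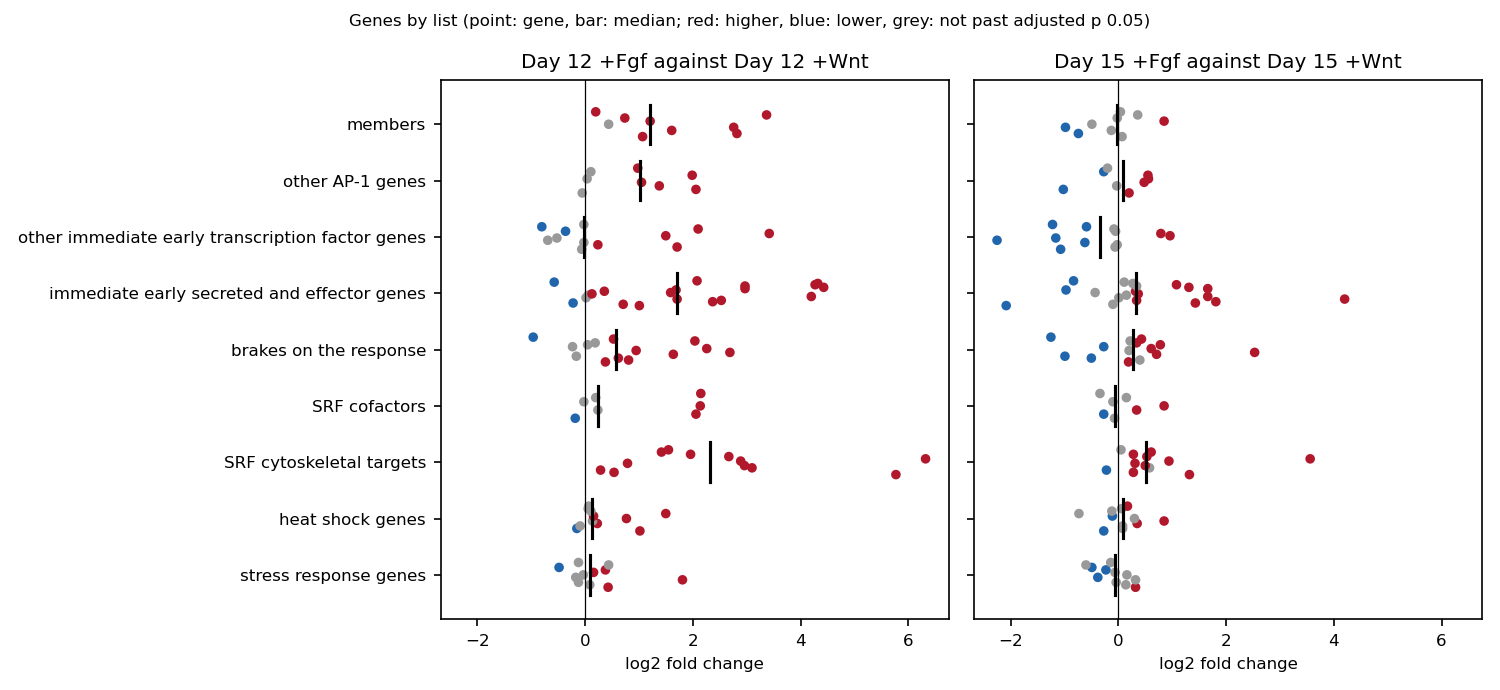
Log2 fold change of CPM + 0.3 (x axis) of each tested gene (point) in 9 gene lists (y axis, the members first), at Day 12 (left) and Day 15 (right), with a bar at the median of each list and colors as adjusted p under 0.05 (red higher, blue lower in +Fgf tissue, grey not past it). The medians of the 9 tested members (Fosb and Egr2 included) and of the SRF cytoskeletal targets are 1.21 and 2.32 at Day 12 and -0.02 and 0.52 at Day 15.

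Heat shock and stress genes were counted because handling and stress are known to induce them together with immediate early genes. The summed level of 11 heat shock genes was lower at Day 12 than at Day 10 (6437 to 6986 CPM in +Fgf and 6167 to 6185 CPM in +Wnt tissue) and lowest at Day 15 (4857 to 5203 and 4772 to 5036 CPM). Against Day 10, 7 of 11 fell and 1 rose in Day 12 +Fgf tissue, and 9 fell and 0 rose in Day 12 +Wnt tissue. Of all genes, 27.8% fell and 27.9% rose in Day 12 +Fgf tissue, and 29.6% fell and 30.6% rose in Day 12 +Wnt tissue. In Day 12 +Fgf against Day 12 +Wnt 5 of 11 were higher and 1 lower (median 0.14), against 26.3% and 25.2% of all genes. At Day 15 3 were higher and 2 lower (median 0.08), below the 38% and 30.6% of all genes. The summed level of 11 genes of the integrated stress and unfolded protein responses was 1661 to 1824 CPM at Day 10 and at most 1545 CPM in the cultured groups. Against Day 10, 6 of 11 fell and 2 rose in Day 12 +Fgf tissue, and 7 fell and 1 rose in Day 12 +Wnt tissue. Between the stimulations, 4 were higher in +Fgf tissue and 1 lower at Day 12 (median 0.09), led by Chac1 (1.81, SE 0.34, adjusted p = 0.000251). At Day 15, 1 was higher and 3 lower (median -0.06).

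Across the 15 libraries, the genes whose log2 values followed each member most closely, among 11335 genes with a mean of at least 5 CPM, are given as a description, since all points share the 5 groups. Fos was followed by Egr1 (r = 0.958), Lmna (0.954) and Ptrf (0.942), and Egr1 by Fos, Gm3558 (0.952) and Myof (0.949). Junb was followed by Zfp36 (0.975), an mRNA decay factor of the same response, Cxcr7 (0.960) and Fam19a2 (0.955). Ier2 was followed by Ctgf (0.991), a secreted matricellular protein, and Ier3 by Hspb6 (0.991), Olfm2 (0.985) and Ndn (0.982). Srf was followed by Nploc4 (0.980), Eaf1 (0.979) and Nop2 (0.978), Atf3 by Sdccag3 (0.956), Gnl2 (0.955) and Cars (0.954), Fosb by Imp3 (0.959), and Egr2, at few reads, by Rgs9 (0.882). Among the members, r was 0.85 between Fos and Junb, 0.92 between Junb and Egr1, 0.89 between Fosb and Atf3, 0.11 between Fos and Ier3 and -0.89 between Ier3 and Srf, over 15 libraries in each case.

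The positions of the genes follow GENCODE on GRCm38, the build called mm10. Fos is at chr12:85473890-85477273, Fosb at chr7:19302696-19310051, Fosl1 at chr19:5447547-5455946, Junb at chr8:84974484-84978718, Atf3 at chr1:191170296-191218039, Egr1 at chr18:34859823-34864984, Egr2 at chr10:67535475-67542188, Ier2 at chr8:84661331-84662852, Ier3 at chr17:35821684-35822923 and Srf at chr17:46548329-46556175. All are protein-coding, and apart from Junb and Fosl1 none shared exon sequence with another annotated gene.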

How the data were processed

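The series held 15 mouse RNA-Seq libraries in 5 groups of 3, grouped by their titles. Replicates were called triplicates from 1 ES line, so p-values measure the spread between these samples, which may in part be technical. Per the labels and the paper's methods, paired reads of poly(A) RNA (a stranded kit) were mapped to mm10 with TopHat2 2.0.8b, fragments per gene of the UCSC transcriptome were estimated with Cuffdiff of Cufflinks 2.1.1, and the authors normalized them in edgeR 3.2.4. The strand setting is not given in the sources used here. The deposited values are a signal per gene, in what the authors call CPM, divided by normalized library sizes. Every value above 0 (100.0%) was an integer number of reads, within 0.01 read, so reads were recovered. RNA integrity numbers came from the study's sample sheet.

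Log2(value + 0.3) was fitted with limma 3.58.1 (R 4.3.3) as 5 group means over all 15 libraries, moderated with a trend, for 13845 genes with at least 1 CPM in at least 3 samples. Tests were two-sided, with Benjamini-Hochberg adjustment over all genes tested in each comparison and a threshold of 0.05. The procedure was tested on simulated data. Alternatives were pseudocounts of 0.05 and 1, no filter or a filter of 10 CPM, median-of-ratios scaling, quantile normalization, RNA integrity as covariate, the replicate number as a block, a fit of the compared groups alone, edgeR 4.0.16 (quasi-likelihood) on recovered reads, and leaving out each replicate. Python 3.11.15 with pandas 2.3.3, NumPy 2.4.6 and matplotlib 3.10.9 was used for the rest.

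All 10 members are reported. From each list at most the 2 largest increases and 2 largest decreases past the threshold in each of the stimulation comparisons at Day 12 and Day 15 are named, and the 3 genes most like each member. Not every gene that meets this rule is reported here. Kdr, Cdh5, Emcn and Csf1r were named after their values were seen. The members and the lists were chosen with earlier results of these data known. Promoters came from RefSeq, positions from GENCODE.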

Additional observations from a re-analysis of the deposited data

Results flagged for a closer look

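The change from Day 12 to Day 15 differed between +Fgf and +Wnt tissue, by the interaction term of the limma fit, for 7 members. Of all genes tested, the difference was positive for 27% and negative for 20.9%. On the log2 scale the difference was -3.74 for Fos (adjusted p = 6.65e-08), -3.00 for Junb (adjusted p = 1.73e-07), -3.56 for Egr1 (adjusted p = 3.34e-09), -1.74 for Egr2 (adjusted p = 0.014), -0.36 for Ier2 (adjusted p = 0.0185), -0.76 for Ier3 (adjusted p = 0.00658) and -1 for Atf3 (adjusted p = 0.00316). Fos, Junb and Egr1 fell in +Fgf tissue and rose in +Wnt tissue, Ier3 rose in both and Ier2 fell in both. Egr2 passed the filter through Day 10 and Day 12 +Fgf libraries alone, so the groups in which it is high decided that it was tested. Its Day 15 +Fgf replicate 2 held 0 reads. Over the 7 members at the filter's level in all 15 libraries, the difference was negative for 6. With RNA integrity as a covariate the differences of Egr2 (-1.46, adjusted p = 0.243), Ier2 (-0.43, adjusted p = 0.109) and Atf3 (-0.59, adjusted p = 0.283) were not past the threshold, nor were those of Ier2 (-0.28, adjusted p = 0.0565) and Atf3 (-0.53, adjusted p = 0.0773) with quantile normalization. The Ier2 difference was also not past the threshold without Day 12 +Fgf replicate 3 (-0.27), Day 15 +Fgf replicate 2 (-0.30) or Day 15 +Wnt replicate 3 (-0.30), with adjusted p from 0.0529 to 0.0569.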

How the results depend on the processing

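Of 1323 values of single members under an alternative, 1261 kept their direction and their side of the threshold, 36 were no longer past it, 11 came past it and 15 changed sign. The counts of members called changed by a factor over 1.5 in 4 cases, with smaller changes in others: to 5 from 8 for Day 12 +Wnt against Day 10 with a filter of 10 CPM, which tests fewer genes, to 5 from 8 for Day 15 +Fgf against Day 12 +Fgf and to 4 from 7 for the interaction with RNA integrity as a covariate, and to 5 from 3 for Day 15 +Fgf against Day 15 +Wnt with quantile normalization. With RNA integrity, the genes called fell to 3591 from 7899 and to 3842 from 6636 in the same 2 comparisons. In the study's sample sheet the Day 15 +Fgf libraries had lower RNA integrity than every Day 12 +Fgf and every +Wnt library. In these 2 comparisons the effects of RNA integrity and of that group therefore cannot be told apart. This also holds for Day 15 +Fgf against Day 15 +Wnt, where the genes called fell to 6362 from 9505. The Day 10 libraries had lower RNA integrity than every Day 12 and every Day 15 +Wnt library. In the comparisons of those groups with Day 10, the effects of group and RNA integrity likewise cannot be told apart. With the covariate, genes called there fell to 5608 from 7716 (Day 12 +Fgf) and to 6941 from 8330 (Day 12 +Wnt). Apart from the filter, the causes of the changed counts were not tested. Quantile normalization moved the median of all genes in Day 15 +Wnt against Day 10 by -0.102 on the log2 scale.

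The changes of sign were of values between -0.49 and 0.46 in the main fit, none past the threshold there. Fos in Day 12 +Fgf against Day 10 (-0.01) ranged from -0.20 to 0.21 when 1 replicate was left out, with 0.21, 0 and 0.01 without Day 10 replicate 1 or Day 12 +Fgf replicate 1 or 2. In Day 15 +Wnt against Day 12 +Wnt, quantile normalization gave -0.22 for Fosb, -0.10 for Egr2 and -0.55 for Atf3. In Day 15 +Fgf against Day 15 +Wnt it gave 0.11 for Fosb, 0.38 for Egr2 and -0.01 for Srf, and edgeR gave -0.01 for Srf. There Egr2 was 0.11 with RNA integrity, and leaving out 1 replicate gave -0.42 to 0.42 for Egr2 (0.01 without Day 15 +Wnt replicate 1), -0.06 to 0.03 for Ier3 and -0.09 to 0.20 for Atf3. Leaving out 1 replicate kept the counts of members called between 6 and 7 of 9 for Day 12 +Fgf against Day 10 between 7 and 8 for Day 12 +Fgf against Day 12 +Wnt, and between 3 and 4 for Day 15 +Fgf against Day 15 +Wnt.

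With the replicate block, 8 members (as without it) and 7094 genes (7131 without it) were called in Day 12 +Fgf against Day 12 +Wnt, and 1 call of a member changed, Egr2 in Day 15 +Wnt against Day 10 (-0.84, adjusted p = 0.0493). The replicates share only a number: deviations of same-numbered libraries from their group means correlated at -0.253 to 0.245 (median -0.008, 30 pairs), and 6 of 15 libraries correlated best with their own number. Depth limits Fosb, Fosl1 and Egr2, which held 13 reads or fewer in many libraries.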
